A study of Mus musculus with 8 samples.

Results

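The genes described here are 34 genes of red cell biology other than the globins. They comprise 8 enzymes of heme synthesis, 3 carriers and transporters of the mitochondrial inner membrane that serve heme synthesis, 4 genes of iron uptake and storage and 2 heme oxygenases. The rest are 7 erythroid transcription factors or cofactors, the erythropoietin receptor, 7 genes of the red cell membrane and its skeleton and 2 red cell enzymes. They were chosen by name, not by a measured value, though with earlier results of these data known. All 34 were found among the 55487 genes of the count table. RNA was measured in mouse E14-Tg2a embryonic stem cells on day 6 of a serum-free differentiation towards precardiac mesoderm. The parental line, wild type for Tbx1, gave 4 libraries and the line 4D, homozygous mutant for the T-box transcription factor gene Tbx1, gave another 4, each a biological replicate per the labels. The mutant libraries all came from the 1 line 4D, so the genotype and whatever else is particular to 4D cannot be told apart. The libraries were made from whole cultures, and in such bulk RNA more cells of a type and more RNA per cell cannot be told apart.

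Heme is built in a chain of enzymatic steps that starts and ends in the mitochondrion, and the last step inserts iron into the porphyrin ring. Developing red cells take up iron through the transferrin receptor, carry it into mitochondria through mitoferrin-1 and use an erythroid form of the enzyme of the entry step, under transcription factors such as GATA1, TAL1, KLF1 and NFE2. The earliest red cells of the embryo arise from mesoderm in the yolk sac alongside endothelium. The iron responsive element, a short RNA hairpin, is bound by iron regulatory proteins when iron is scarce, which blocks translation where it lies in the 5′ untranslated region, as in ferritin, and stabilises the RNA of the transferrin receptor, where it lies in the 3′ untranslated region.

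The hairpins are printed because they are the sequence that genes of iron storage, iron uptake and erythroid heme synthesis in this set have in common. A search of the annotated transcripts for a C bulge, a stem of 5 pairs and a CAGTGN loop found such a hairpin in the untranslated regions of 4 genes, Alas2, Fth1, Ftl1 and Tfrc. Of 21877 protein-coding genes, 160 (0.731%) held a match in an untranslated region. The 30 bases of each site are given 5′ to 3′ on the transcript strand, with the loop in capitals and coordinates on GRCm38. For the erythroid ALA synthase gene the printed bases cross from exon 1 into exon 2, after the end of the searched hairpin. In the 5′ untranslated regions the sites were those of this gene and of both ferritin chains:
Alas2, chrX:150547458-150552150, plus strand, spliced: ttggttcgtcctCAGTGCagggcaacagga
Fth1, chr19:9982732-9982761, plus strand: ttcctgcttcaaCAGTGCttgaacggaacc
Ftl1, chr7:45459778-45459807, minus strand: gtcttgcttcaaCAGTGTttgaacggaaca
The 3′ untranslated region of the transferrin receptor gene, in exon 19, held 4 sites:
Tfrc, chr16:32631219-32631248, plus strand: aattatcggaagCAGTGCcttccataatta
Tfrc, chr16:32631598-32631627, plus strand: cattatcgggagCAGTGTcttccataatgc
Tfrc, chr16:32631663-32631692, plus strand: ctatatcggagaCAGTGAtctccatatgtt
Tfrc, chr16:32631710-32631739, plus strand: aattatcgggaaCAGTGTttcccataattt
The search found no such letters in the transcripts of Slc11a2, but it passes over any hairpin whose 5 stem pairs are interrupted.

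Promoters were searched for the letters GATAA on both strands, the core that GATA factors bind, because 7 of the 34 genes encode or work with erythroid transcription factors. RefSeq start sites (GRCm38.p6) gave promoters, 250 bases before to 50 after the start, for 24 of the 34 genes, and none for the other 10. The core was in promoters of 10 of the 24 genes, and in 10 of their 34 promoters, against 25.4% of 32851 promoters of all genes. A match is a run of letters, not a measured binding site. Windows of 45 bases are given in the direction of the gene, with the core in capitals, for 5 genes of red cell identity and 3 of heme synthesis:
Tal1, chr4:115056201-115056245, plus strand: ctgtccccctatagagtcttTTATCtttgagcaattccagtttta
Klf1, chr8:84901882-84901926, plus strand: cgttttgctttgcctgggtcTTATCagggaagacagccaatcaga
Gfi1b, chr2:28622077-28622121, minus strand: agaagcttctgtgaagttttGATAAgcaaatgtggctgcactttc
Epor, chr9:21963606-21963650, minus strand: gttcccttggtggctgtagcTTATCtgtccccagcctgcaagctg
Rhag, chr17:40811098-40811142, plus strand: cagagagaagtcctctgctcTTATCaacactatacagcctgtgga
Alas2, chrX:150547311-150547355, plus strand: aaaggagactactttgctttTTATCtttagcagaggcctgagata
Uros, chr7:133702544-133702588, minus strand: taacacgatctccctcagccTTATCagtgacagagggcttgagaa
Cpox, chr16:58670102-58670146, plus strand: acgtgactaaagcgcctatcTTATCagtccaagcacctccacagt
The core started 205 bases before the start in Tal1, 80 in Klf1, 119 in Gfi1b, 54 in Epor, 31 in Rhag, 86 in Alas2, 68 in Uros and 86 in Cpox, which held another shortly after its start. Tal1 and Uros each had 2 promoters, and the core was in only 1 of them. The KLF1 core CCACACCC, searched on both strands, was in 0 of the 34 promoters against 3.56% of all promoters. The antioxidant response core TGACNNNGC was in promoters of 5 of the 24 genes (6 of the 34 promoters) against 12.4%.

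QuantSeq reads the 3′ end of polyadenylated transcripts, so a level is a count divided by the library's effective size and not by transcript length. The unit is CPM, with effective sizes from edgeR's trimmed mean of M values (TMM). Library totals lay between 3803561 and 6293907 counts. The targeted gene Tbx1 had 39, 65, 38 and 22 counts in parental libraries 1 to 4, and 3, 0, 1 and 0 counts in those of the mutant line, which goes with the labels. Mutant library 4 stood apart: 14850 genes had a count in it, against 18213 to 19134 in the other 7 libraries, and its correlation with any other library across genes was at most 0.908, against at least 0.935 among the other pairs. Values without it are given beside several of the genes. Markers of the labelled fate were present, with 1476 to 2095 CPM summed over 11 precardiac and cardiac genes in parental and 1466 to 1574 CPM in mutant libraries, of which 8 had negative estimates in the mutant line (given with the other markers at the end), and Mesp1, an early mesoderm factor, was at 1.63 ± 1.16 CPM in the parental and 2.97 ± 1.67 CPM in the mutant line (SD, n = 4 per line). Summed pluripotency markers were between 13.4 and 24.0 CPM in all 8 libraries. In all libraries globin RNA was present, with 128 to 186 CPM summed over 11 genes in parental libraries and 754 to 1063 CPM in mutant libraries.

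Of the 34 genes, 1 rose in the mutant line, the mitoferrin-1 gene Slc25a37, and 0 fell. The other 30 tested genes did not pass the threshold of an adjusted p under 0.05. Slc25a37 rose 1.87-fold, from 19.9 ± 1.44 to 37.2 ± 6.60 CPM (SD, n = 4 per line). The lines also did not overlap for the transcription factor gene Tal1 and the carbonic anhydrase gene Car2, both higher in all 4 mutant libraries. The abundant heme synthesis enzymes, ferritin heavy chain and the transferrin receptor had estimates near 0. Over all 13280 tested genes, 99 (0.745%) were called higher and 89 (0.67%) lower in the edgeR quasi-likelihood test, and the libraries did not overlap for 463 (3.49%) higher and 536 (4.04%) lower. A call of 1 in 31 tested genes, and no overlap in 3 higher and 0 lower, are to be read beside those shares.

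**Figure D1:**
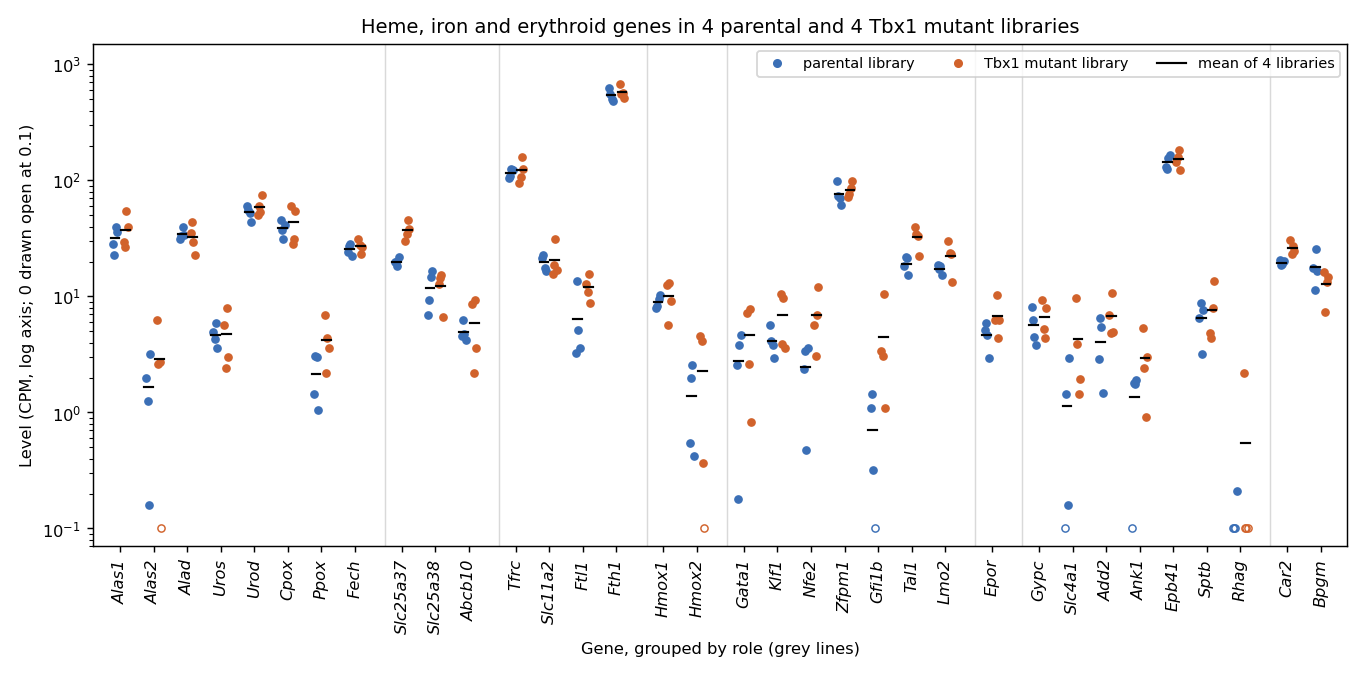
Level of each of the 34 genes (CPM, log axis) in 4 parental and 4 Tbx1 mutant libraries, with the mean of each line as a bar; open circles at 0.1 stand for libraries with 0 counts. Fth1 is at the top, between 480 and 672 CPM, and for Slc25a37, Tal1 and Car2 all 4 mutant points lie above all 4 parental points.

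The 8 enzymes of heme synthesis had estimates of either sign, and 0 of 8 passed the test. Alas1, the housekeeping enzyme of the entry step, was between 22.8 and 39.6 CPM in the parental and between 26.6 and 54.1 CPM in the mutant line. Its erythroid counterpart Alas2 was far less abundant. Alas2 had 2.00, 1.26, 0.16 and 3.16 CPM in parental libraries 1 to 4, against 6.22, 2.61, 2.72 and 0 CPM in mutant libraries 1 to 4. The lines overlapped, and the 0 in mutant library 4 allows up to 0.825 CPM, the level of 3 counts there. The log2 fold change of Alas2 was 0.85 ± 0.97 (SE, 95% interval -1.18 to 2.87), on 98 counts in all. Leaving out a library moved it between 0.15 (without mutant library 1) and 1.35 (without parental library 4), with 0.45 without parental library 3 and 1.24 without mutant library 4. An interval this wide holds both no difference and a 7-fold rise (upper bound 7.33-fold).

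The abundant enzymes were measured more tightly. Urod, which acts on uroporphyrinogen, was at 53.1 ± 7.30 CPM in the parental and 59.5 ± 10.96 CPM in the mutant line (SD, n = 4 per line), a log2 fold change of 0.16 ± 0.17 (SE). For Fech, the ferrochelatase that inserts iron, the levels were 25.5 ± 2.67 and 27.4 ± 3.42 CPM, and the log2 fold change was 0.10, with a 95% interval from -0.33 to 0.53. Intervals of this width leave room for a change of up to about 1.45-fold in Fech and 1.43-fold in Urod (upper bounds). Alad, which makes porphobilinogen, was the enzyme with a negative estimate, -0.07 ± 0.21 (SE), and mutant library 4 held its lowest value, 22.8 CPM against 29.4 to 44.0 CPM in mutant libraries 1 to 3. Without that library its estimate was 0.06.

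Cpox, the coproporphyrinogen oxidase, ranged from 31.3 to 45.3 CPM in parental and from 28.3 to 59.6 CPM in mutant libraries. Its mutant libraries fell to either side, with 59.6 and 54.7 CPM in libraries 1 and 4 and 28.3 and 31.4 CPM in libraries 2 and 3. Ppox, the oxidase of the step after it, was at 2.15 ± 1.04 and 4.25 ± 1.98 CPM (SD, n = 4 per line), with 3 of 4 mutant libraries above every parental one and a log2 fold change of 0.98 ± 0.68 (SE). Uros, which closes the ring, had a log2 fold change of 0.04 ± 0.56 (SE) at 4.68 and 4.78 CPM on average. Summed over the 8 enzymes, levels were 184 to 200 CPM in the parental and 194 to 225 CPM in the mutant line, which overlap.

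Among the 3 genes of the mitochondrial inner membrane, the iron importer Slc25a37 stood apart from the other pair. Slc25a37 (ENSMUSG00000034248.7, chromosome 14, 69241848 to 69285112, minus strand, GRCm38) had 20.002, 19.7, 18.2 and 21.7 CPM in parental libraries 1 to 4, against 29.9, 34.9, 45.6 and 38.5 CPM in mutant libraries 1 to 4. All 4 mutant libraries were above the highest parental one, the nearest pair being 29.9 and 21.7 CPM. The log2 fold change was 0.90 ± 0.21 (SE, 95% interval 0.47 to 1.34), with an adjusted p of 0.0347 in the edgeR quasi-likelihood test. That call sits close to the threshold. With the replicate number as a block the edgeR adjusted p was 0.0518 (log2 fold change 0.89). It was 0.0805, 0.127, 0.129 and 0.0609 in edgeR without parental library 1, 2, 3 or 4, and 0.0524 and 0.131 without mutant library 2 or 3. Without mutant library 1 or 4 the edgeR adjusted p was 0.0348 or 0.0452, so the call does not rest on the library that stood apart. The log2 fold change stayed between 0.78 and 0.99 over the 8 fits that left out a library.

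Mitoferrin-2, the widely expressed counterpart encoded by Slc25a28, is set beside it as a description; the gene and the ratio were chosen after the values had been seen, and the ratio restates the difference in Slc25a37. Slc25a28 was at 26.6 ± 5.90 CPM in the parental and 24.2 ± 3.90 CPM in the mutant line (SD, n = 4 per line), with a log2 fold change of -0.14 (adjusted p of 0.87 in edgeR). The ratio of Slc25a37 to Slc25a28 counts was 0.982, 0.705, 0.533 and 0.904 in parental libraries 1 to 4. The mutant libraries, in the same order, had 1.38, 1.74, 1.67 and 1.39. So mitoferrin-1 counts were below those of mitoferrin-2 in all parental libraries and above them in all mutant libraries.

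Slc25a38, which brings glycine into mitochondria for the entry step, was at 11.9 ± 4.57 and 12.3 ± 3.95 CPM (SD, n = 4 per line), a log2 fold change of 0.05 ± 0.36 (SE). Abcb10, a transporter that binds mitoferrin-1, was at 4.96 ± 0.91 and 5.90 ± 3.54 CPM, with mutant libraries 1 and 3 at 8.57 and 9.26 CPM and mutant libraries 2 and 4 at 2.18 and 3.57 CPM. The parental values of Abcb10, 4.21 to 6.28 CPM, lay between these pairs.

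**Figure D2:**
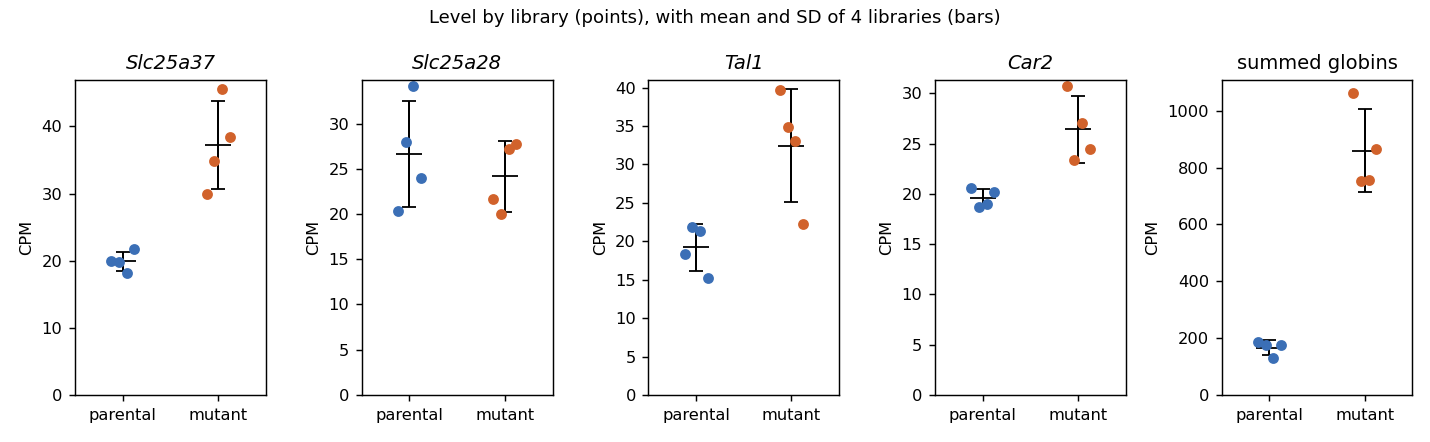
Level (CPM, axes from 0) of Slc25a37, Slc25a28, Tal1, Car2 and the 11 globin genes summed, in each library (points) with mean and SD of the 4 libraries of a line (bars). The lines are separate for Slc25a37, Tal1, Car2 and the globin sum, and overlap for Slc25a28.

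Iron uptake and storage genes had the largest summed level of the roles, 623 to 756 CPM in parental and 669.7 to 795 CPM in mutant libraries, and 0 of 4 passed the test. Fth1, the ferritin heavy chain, had the highest level of the 34 genes, with 628, 556, 505 and 480 CPM in parental libraries 1 to 4, against 672, 558, 568 and 518 CPM in mutant libraries 1 to 4. The lines overlapped. Its estimate on the log2 scale was 0.09 ± 0.11 (SE), and the 95% interval, -0.13 to 0.32, was the narrowest of the 31 tested genes and has 1.25-fold as its upper bound. Tfrc, the transferrin receptor that carries the 4 hairpins shown above, was between 104 and 126 CPM in the parental and between 95.2 and 159 CPM in the mutant line, a log2 fold change of 0.08 ± 0.15 (SE). Slc11a2, which moves iron out of the endosome, was at 19.6 ± 2.97 and 20.6 ± 7.19 CPM (SD, n = 4 per line). For Tfrc and for Slc11a2, mutant library 3 was the highest of all 8, at 159 and 31.2 CPM, and without it the estimates were -0.09 and -0.21.

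The ferritin light chain gene Ftl1 is uncertain, because near-identical copies can take up its reads. Ftl1 itself had 3.27, 13.5, 5.11 and 3.58 CPM in parental libraries 1 to 4, against 12.8, 10.9, 15.6 and 8.80 CPM in mutant libraries 1 to 4. Its estimate on the log2 scale was 0.92 ± 0.45 (SE), with an adjusted p of 0.438 in edgeR. The 3 copies Ftl2-ps, Ftl1-ps2 and Ftl1-ps1 held 1367 counts, of which 1235 were on Ftl2-ps, against 386 on Ftl1. Counts were therefore also added up over Ftl1 and these copies, a choice made after the data had been seen. The sum was 23.6, 50.1, 30.2 and 19.4 CPM in parental and 57.8, 35.5, 48.7 and 79.2 CPM in mutant libraries 1 to 4. Parental library 2 was above mutant libraries 2 and 3, so the lines overlapped. The log2 fold change of the sum was 0.84 ± 0.27 (SE, 95% interval 0.26 to 1.41), with an adjusted p of 0.169 in edgeR. The copies of the heavy chain held 7 counts, against 23564 on Fth1.

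Both heme oxygenases, which open the heme ring and release its iron, had overlapping lines. Inducible Hmox1 was at 9.04 ± 1.101 CPM in the parental and 10.1 ± 3.46 CPM in the mutant line (SD, n = 4 per line). Constitutive Hmox2 was near the limit of detection, with 0.55, 1.97, 2.55 and 0.42 CPM in parental libraries 1 to 4, against 4.54, 4.14, 0.36 and 0 CPM in mutant libraries 1 to 4. A level of 3 counts corresponds to 0.479 to 0.825 CPM, so 4 of these 8 values, 0.55 included, are at or under it.

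The erythroid transcription factors and their cofactors had 6 positive estimates in 6 tested genes, with a median log2 fold change of 0.75 against 0.00 over all tested genes, and 0 of 6 passed the test. Tal1 (ENSMUSG00000028717.12, chromosome 4, 115056426 to 115071755, plus strand), the basic helix-loop-helix factor required for blood formation, was nearest to the threshold. Its levels were 18.4, 21.9, 21.4 and 15.2 CPM in parental libraries 1 to 4, against 39.6, 34.9, 33.1 and 22.3 CPM in mutant libraries 1 to 4. The lowest mutant value, in library 4, was just above the highest parental value. The log2 fold change was 0.76 ± 0.23 (SE, 95% interval 0.27 to 1.25), with an adjusted p of 0.131 in edgeR. Without mutant library 4 it was 0.90 with an edgeR adjusted p of 0.0429. Lmo2, the bridging protein of the TAL1 complex, had 18.5, 17.4, 18.2 and 15.4 CPM in parental and 30.2, 23.5, 23.1 and 13.2 CPM in mutant libraries 1 to 4. In Lmo2 the first 3 mutant libraries exceeded every parental library and mutant library 4 was below all of them, and its log2 fold change was 0.38 ± 0.26 (SE) with that library and 0.56 without it.

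The factors specific to red cell and megakaryocyte precursors were low. Gata1 had 2.55, 0.18, 3.83 and 4.64 CPM in parental libraries 1 to 4, against 7.22, 2.61, 7.81 and 0.82 CPM in mutant libraries 1 to 4, a log2 fold change of 0.74 ± 0.80 (SE). Klf1, the activator of the adult β-globin gene, was at 5.64, 4.13, 3.83 and 2.95 CPM in parental and 10.6, 3.92, 9.63 and 3.57 CPM in mutant libraries 1 to 4. For each of these factors, mutant libraries 1 and 3 were above every parental library and mutant libraries 2 and 4 were inside the parental range.

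Nfe2, a subunit of the leucine zipper factor NF-E2, had 2.36, 3.41, 0.48 and 3.58 CPM in parental and 5.71, 3.05, 6.90 and 12.1 CPM in mutant libraries 1 to 4. Here mutant library 4 was the highest, not the lowest. The log2 fold change of Nfe2 was 1.49 ± 0.66 (SE, 95% interval 0.11 to 2.88), with an adjusted p of 0.372 in edgeR, and without mutant library 4 it was 1.09 (adjusted p of 0.601 in edgeR). Gfi1b, a repressor needed for red cell and platelet precursors, was under the filter on low counts and was not tested, with 16 counts in parental libraries together and 96 in mutant libraries, 58 of them in mutant library 3. Without mutant library 4 it passed the filter, and the log2 fold change was 2.93 (adjusted p of 0.131 in edgeR). Zfpm1, the GATA1 cofactor FOG1, was the most abundant of the group and had 76.1 ± 16.2 and 83.3 ± 11.7 CPM (SD, n = 4 per line), a log2 fold change of 0.13 ± 0.16 (SE).

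Epor, the erythropoietin receptor, was at 4.65 ± 1.25 CPM in the parental and 6.78 ± 2.47 CPM in the mutant line (SD, n = 4 per line). Mutant libraries 1, 2 and 4 were above every parental library and mutant library 3, at 4.36 CPM, was inside their range. Its estimate on the log2 scale was 0.54 ± 0.49 (SE), with an adjusted p of 0.736 in edgeR.

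Membrane and skeleton genes split by abundance. Epb41, which encodes protein 4.1 and is used in many cell types, was at 144.5 ± 19.8 and 152 ± 25.5 CPM (SD, n = 4 per line), a log2 fold change of 0.07 ± 0.14 (SE). Slc4a1, the anion exchanger band 3 that is the main protein of the red cell membrane, had 0, 1.44, 0.16 and 2.95 CPM in parental libraries 1 to 4, against 9.74, 3.92, 1.45 and 1.92 CPM in mutant libraries 1 to 4. Its estimate was the largest of the tested genes of the set, a log2 fold change of 1.93 ± 0.99 (SE, 95% interval -0.15 to 4.01), with an adjusted p of 0.47 in edgeR. That estimate rests on 23 parental and 91 mutant counts, 58 of them in mutant library 1. Without that library it was 1.102, and without parental library 4 it was 2.97.

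The adaptor and skeleton genes were low as well. Add2, the β chain of adducin, was between 1.47 and 6.46 CPM in the parental and between 4.79 and 10.7 CPM in the mutant line. Sptb, the β chain of red cell spectrin, was between 3.19 and 8.79 CPM and between 4.36 and 13.5 CPM, and its estimate of 0.22 turned to -0.18 without mutant library 4. Gypc, glycophorin C, had 5.68 ± 1.97 and 6.70 ± 2.29 CPM (SD, n = 4 per line). Ank1, the ankyrin that ties the skeleton to band 3, and Rhag, the Rh-associated glycoprotein, were under the filter. Ank1 held 30 parental and 59 mutant counts. Rhag held 1 parental and 13 mutant counts, and all 13 were in mutant library 1.

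Car2 and Bpgm are the cytosolic red cell enzymes of the set, and 0 of 2 passed the test. Car2 (ENSMUSG00000027562.12, chromosome 3, 14886273 to 14900770, plus strand), a carbonic anhydrase, had 20.5, 18.7, 19.0 and 20.2 CPM in parental libraries 1 to 4, against 30.7, 23.3, 27.1 and 24.5 CPM in mutant libraries 1 to 4. The lines did not overlap, while the log2 fold change of 0.43 ± 0.22 (SE) had an adjusted p of 0.449 in edgeR. Bpgm, which makes the 2,3-bisphosphoglycerate that lowers the oxygen affinity of hemoglobin, had 17.6, 11.3, 25.7 and 16.4 CPM in parental and 16.1, 7.41, 13.3 and 14.6 CPM in mutant libraries 1 to 4. Its estimate on the log2 scale was -0.47 ± 0.32 (SE), with an adjusted p of 0.625 in edgeR and overlapping lines.

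**Figure D3:**
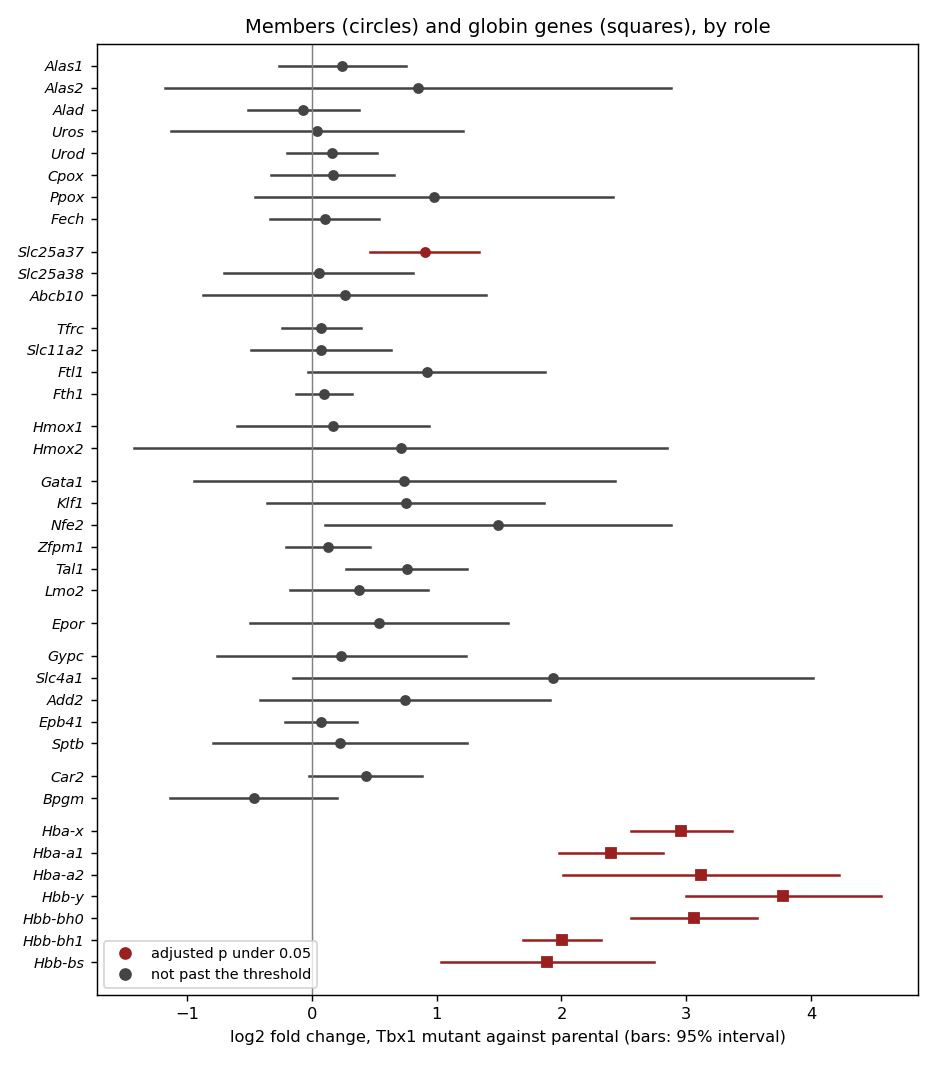
Log2 fold change of the mutant against the parental line with 95% intervals for the 31 tested genes of the set (circles) and 7 tested globin genes (squares), grouped by role. Of the circles only Slc25a37 is past the threshold, and Alad and Bpgm alone have negative estimates, whereas all 7 globin intervals lie above 1.

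As a set, the estimates leaned to one side. Of the 31 tested genes, 29 (93.5%) had a positive log2 fold change, with a median of 0.24, against 50.2% and a median of 0.00 over all tested genes. The genes passed a filter on counts, share libraries and are not independent, and the 3 untested genes are left out of these numbers, so they describe these libraries and carry no test. Without mutant library 4, 31 of 33 tested genes were positive and the median was 0.43, with Gfi1b admitted through its mutant libraries alone. The lean was larger in the rarer genes. The 15 tested genes with a mean under 10 CPM were all positive, with a median of 0.74, while the 16 with at least 10 CPM had 14 positive estimates and a median of 0.11. Over all tested genes, 51.3% of the 4254 with a mean under 10 CPM and 49.6% of the 9026 others were positive. Rare genes were also the ones with little power: the median SE of the log2 fold change was 0.65 in the former class and 0.20 in the latter, and 0.235% and 1.97% of genes were called.

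**Figure D4:**
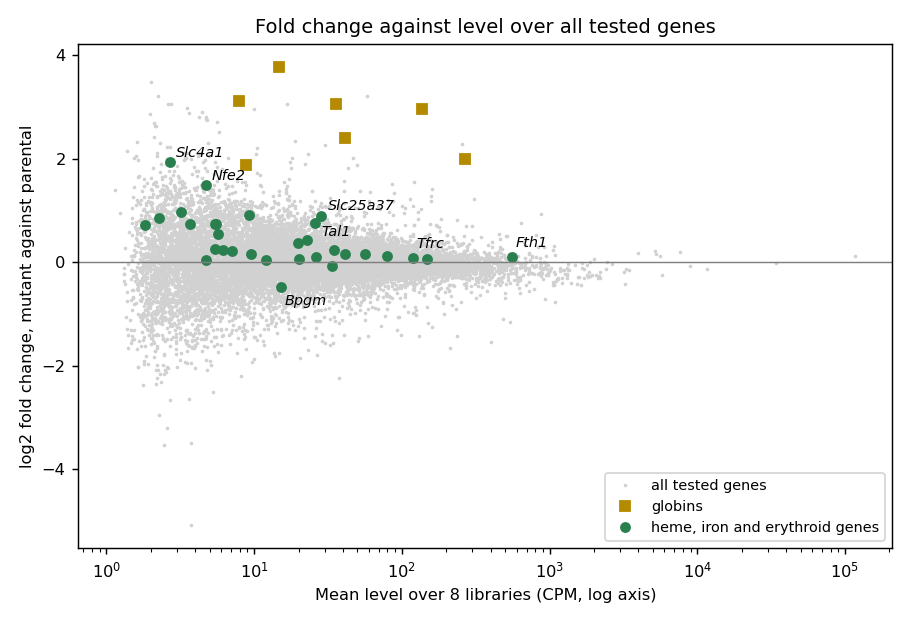
Log2 fold change of the mutant against the parental line plotted against the mean level over 8 libraries (CPM, log axis) for all 13280 tested genes (grey), the 31 tested genes of the set (green) and 7 tested globins (gold squares). The green points lie close to 0 at high levels, as for Fth1 and Tfrc, and mostly above 0 among rare genes, inside the grey cloud, while the globins lie at its upper edge or above it.

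The highest of the 8 values was in a mutant library for 31 of the 34 genes. Mutant library 1 held it for 14 genes, among them Alas2, Klf1, Slc4a1 and Tal1, and mutant library 3 for 12, among them Slc25a37, Gata1 and Tfrc. Mutant libraries 2 and 4 held it for 2 and 3 genes. The exceptions were Zfpm1 in parental library 1, Bpgm in parental library 3 and Slc25a38 in parental library 4. Among the 31 tested genes the share highest in a mutant library was 90.3%, against 55.9% of all tested genes. For single libraries the share of all tested genes was not counted. Summed by role, the 3 mitochondrial genes were at 31.5 to 42.6 CPM in the parental and 48.7 to 70.3 CPM in the mutant line, where Slc25a37 makes up most of the sum. The 7 transcription factors and cofactors were at 103 to 148 CPM in the parental and 148 to 177 CPM in the mutant line, with 147.6 CPM in the highest parental and 147.7 CPM in the lowest mutant library. Sums over heme synthesis, iron, heme breakdown and membrane genes overlapped between the lines.

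Globin RNA was higher in every mutant library. All 7 tested globins rose in the edgeR test, with log2 fold changes of 2.96 for Hba-x, 2.40 for Hba-a1, 3.12 for Hba-a2, 3.78 for Hbb-y, 3.07 for Hbb-bh0, 2.00 for Hbb-bh1 and 1.89 for Hbb-bs. Hbb-bh0 is annotated as an unprocessed pseudogene. Of the 4 untested globins, Hbb-bt held 14 parental and 0 mutant counts, Hbq1b held 2 and 18, and 2 had no counts. Intervals of the rare heme genes Alas2 (-1.18 to 2.87) and Ppox (-0.46 to 2.41) hold the estimates of Hba-a1, Hbb-bh1 and Hbb-bs. The estimates of Hba-x, Hba-a2, Hbb-y and Hbb-bh0 lie above both intervals. Intervals of the abundant Urod and Fech end at 0.52 and 0.53, below all 7 globin estimates. The difference between globins and heme genes was not tested. Hba-a1 and Hba-a2, as well as the β genes, are close copies whose reads can be shared. The ratio of summed globin to Slc25a37 counts, chosen after the values had been seen and given without a test, was 9.28, 8.93, 7.06 and 8.13 in parental libraries 1 to 4. Among mutant libraries, in the same order, it was 35.5, 21.6, 16.6 and 22.5. Every mutant library had more globin counts per Slc25a37 count than any parental library. Mutant library 1 had the highest globin sum, 1063 CPM. It also had the highest value of 14 of the 34 genes, among them Alas2, Klf1, Slc4a1 and the untested Rhag. How many of all tested genes were highest in this library was not counted, and a link with globin was not tested. Slc25a37 was at its lowest mutant value in mutant library 1, 29.9 CPM, and Gata1, Gfi1b, Nfe2 and Epor were highest in other mutant libraries.

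Other genes of heme and iron metabolism were taken from a list of 38, of which 31 were tested, 0 passed the edgeR test and 4 had an unadjusted p under 0.05. DESeq2 called 2 of them. Their median log2 fold change was 0.10, with 19 positive and 12 negative estimates. Nearest to the threshold were Hebp1, a heme-binding protein, at 7.84 ± 3.59 and 19.1 ± 4.96 CPM (SD, n = 4 per line, edgeR adjusted p of 0.083) and the iron exporter ferroportin, Slc40a1, at 17.6 ± 5.62 and 33.7 ± 9.58 CPM (edgeR adjusted p of 0.106), both named after their values were seen. The abundant genes of this list were Pcbp1, an iron chaperone, at 305 and 329.5 CPM, the mitochondrial carrier Slc25a39 at 136 and 146 CPM, and Tmem14c, a porphyrin transporter, at 106 and 136 CPM.

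A further list of 30 red cell genes gave 29 matches and 20 tested genes, of which 17 had positive estimates, with a median log2 fold change of 0.51. The called gene was Bcl11a, the repressor that silences embryonic and fetal globins in adult red cells and is also used in other lineages. Bcl11a had 8.36, 8.25, 4.63 and 7.37 CPM in parental libraries 1 to 4, against 20.7, 13.1, 29.2 and 53.9 CPM in mutant libraries 1 to 4. Its estimate on the log2 scale was 2.02 ± 0.38 (SE), with an adjusted p of 0.00713 in edgeR, and 1.55 (adjusted p of 0.0202 in edgeR) without mutant library 4, which held the highest value. The most abundant genes of the list were Prdx2 at 385 and 398 CPM, Add3 at 142 and 177 CPM and Add1 at 120 and 131 CPM, none past the threshold. Of 7 targets of the NRF2 pathway, which shares Hmox1, 6 were tested and 0 passed in edgeR, 2 with an unadjusted p under 0.05, and the most abundant were Txnrd1, Gclc and Gclm.

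Markers of neighbouring cell types were read in the same libraries, and their part in these results was not tested. Megakaryocytes share Gata1, Tal1, Nfe2, Zfpm1 and Gfi1b with red cells. The 11 megakaryocyte markers summed to 18.03 to 32.5 CPM in the parental and 42.9 to 50.9 CPM in the mutant line without overlap, and 1 of 4 tested, Plek, rose (log2 fold change 1.96, edgeR adjusted p of 0.014). All 4 tested markers had positive estimates, with a median log2 fold change of 0.94, and the other 7 were under the filter. Among genes of platelets, Ppbp was at 0 in every library and Pf4 at 0.39 ± 0.26 and 1.13 ± 1.39 CPM (SD, n = 4 per line). Itga2b was at 14.6 and 16.4 CPM, and Itgb3 at 2.95 and 7.54 CPM (log2 fold change 1.36, edgeR adjusted p of 0.429). The 12 macrophage and leukocyte markers summed to 8.46 to 22.7 and 22.7 to 37.8 CPM, and 0 of 3 tested genes were called. All 3 had positive estimates. Laptm5 was at 4.46 and 13.0 CPM (log2 fold change 1.55, edgeR adjusted p of 0.2), Spi1 at 2.22 and 4.06 CPM and Cd68 at 2.05 and 2.71 CPM. Ptprc and Csf1r were at 0 in every parental library and held 26 and 29 counts in the mutant ones. Itgam was at 0 in all 8. The 7 mast cell markers were at 0 in every parental library and summed to at most 2.54 CPM in a mutant one, with 5 at 0 in all 8.

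Endothelial markers, which include genes active in the shared precursor of blood and vessels, summed over 12 genes to 633 to 999 CPM in the parental and 748 to 1357 CPM in the mutant line, and 0 of 12 passed the edgeR test (1 with an unadjusted p under 0.05). Their estimates leaned upward, 9 positive and 3 negative with a median log2 fold change of 0.32, beside a median of 0.24 for the 31 tested genes of the set. Cldn5, a tight junction gene, was higher in all 4 mutant libraries without overlap, at 32.7 ± 8.69 and 59.4 ± 19.6 CPM (SD, n = 4 per line), with an adjusted p of 0.0773 in edgeR. Kdr, Egfl7 and Pecam1 were the most abundant, at 252, 129 and 94.99 CPM in parental and 319.8, 129.6 and 78.4 CPM in mutant libraries. Tal1 and Lmo2 are also used in endothelium, and the data do not divide their RNA between cell types. The 11 precardiac and cardiac markers leaned the other way from the 34 genes, with 8 negative and 3 positive estimates, a median log2 fold change of -0.63 and 7 unadjusted p under 0.05 in edgeR. Gata6 passed the test and rose (log2 fold change 0.72, edgeR adjusted p of 0.00516). Tnnt2, a heart muscle gene, was at 225 ± 148 CPM in the parental and 94.3 ± 43.0 CPM in the mutant line (SD, n = 4 per line), with an adjusted p of 0.147 in edgeR. Without overlap, 2 of the 11 were higher and 2 lower in the mutant line, beside 3.49% and 4.04% of all tested genes. The lower pair was Isl1 and Hand1, at log2 fold changes of -0.67 and -0.39 (adjusted p of 0.108 and 0.115 in edgeR). Without mutant library 4 Isl1 passed, at -0.86 with an edgeR adjusted p of 0.0173. Of 7 endoderm markers, Foxa2 fell (log2 fold change -1.93, edgeR adjusted p of 0.0254).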

How the data were processed

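Libraries were made with QuantSeq from polyA RNA. The authors deposited raw counts (whole numbers), 1 column for each library, neither normalized nor pooled; alignment with STAR, counting with featureCounts and the build mm10 are per the submitters' processing notes, and versions, annotation and filters are not given in the sources used here. The deposited table is named as counted on the forward strand. Groups and replicate numbers came from the sample titles, and all 8 libraries were used. Of 55487 identifiers, 54435 were identical to GENCODE M21 (GRCm38) and 55227 were given a symbol; 1 gene of the lists was unmatched. The edgeR default filter left 13280 genes with 99.5% of counts. Lines were compared with edgeR 4.0.16 in R 4.3.3 (TMM, quasi-likelihood, line as the model term, two-sided, Benjamini-Hochberg over 13280 genes, threshold 0.05). Each SE is the log2 fold change divided by the square root of F. Intervals are at 95%, and the floor of 3 counts covers counting error only, since PCR reads without molecular identifiers are not independent molecules. The script was tested on simulated data. Alternatives were RLE and library-size scaling, a filter at a mean of 10 counts, no filter, DESeq2 1.42.0, limma-voom (limma 3.58.1), the edgeR 4 quasi-likelihood, robust empirical Bayes, a replicate block, an adjusted p under 0.1 and leaving out each library; adding up Ftl1 and its copies was chosen after seeing the data. Libraries of a line differed beyond sampling noise (chi-square per degree of freedom 7.25 to 26.4). The genes and lists were chosen with earlier results of these data known. Pluripotency genes were given as a sum alone. For the rest, the rule for names took all 34 genes and Tbx1. From each other list it took the called genes, and otherwise the up to 3 most abundant tested ones. Outside it, and chosen after their values were seen, are Slc25a28, Hebp1, Slc40a1, Cldn5, Mesp1, Isl1, Hand1, Tnnt2, Prdx2, Add1, Add3, Ppbp, Pf4, Itga2b, Itgb3, Hbb-bt, Hbq1b, Ptprc, Csf1r, Itgam and the copies of Ftl1.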

Additional observations from a re-analysis of the deposited data

Results flagged for a closer look

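In 68 groups of 4 libraries, 3 values stood far from the other 3 of their line, and chance does so in about 1 group in 20. Ank1 had 0 CPM in parental library 1, against 1.76 to 1.90 CPM in the other parental libraries. Rhag had 0.211 CPM, a single read, in parental library 4 and 2.18 CPM in mutant library 1, against 0 in the other libraries of each line. Both genes were under the filter on low counts and entered no test.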

How the results depend on the processing

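Between libraries of the same replicate number, deviations from the line means correlated at 0.118, 0.012, -0.033 and 0.036 for numbers 1 to 4. Their mean was 0.033, against -0.011 between libraries of different numbers, and 2 of 8 libraries correlated best with their own number. So few values cannot decide whether the replicate numbers pair the libraries. With the replicate block 0 of the 34 genes were called instead of 1 (Slc25a37); leaving out a library gave 0 to 2. Calls over all genes, 188 as reported, were 439 without a filter, 405 with DESeq2, 314 with the edgeR 4 quasi-likelihood, 331 at an adjusted p under 0.1 and 103 to 235 when a library was left out. With library size alone, 100 were higher and 57 lower, against 99 and 89. Of the other heme and iron genes, 2 were called without a filter, 2 with DESeq2, 1 with the edgeR 4 quasi-likelihood, 1 at an adjusted p under 0.1 and 0 to 1 when a library was left out, instead of 0; of the other erythroid genes, 3 were called without a filter instead of 1. Of 31 tested genes of the set, 20 kept their sign under all 17 alternatives and 11 did not, and 29 were never called. Uros was -0.0109 with limma-voom and -0.0831 with the replicate block, and Hmox2 -0.00708 with limma-voom. When a library was left out, Alas1 was -0.00087 to 0.37, Alad -0.25 to 0.062, Uros -0.33 to 0.25, Cpox -0.038 to 0.31, Slc25a38 -0.14 to 0.25, Abcb10 -0.049 to 0.53, Tfrc -0.089 to 0.17, Slc11a2 -0.21 to 0.18, Epb41 -0.03 to 0.16 and Sptb -0.18 to 0.41 (log2 fold changes). The cause of these shifts was not tested. Slc25a37 kept a positive sign throughout and was called under 10 of 17. Summing Ftl1 with its copies gave 0.84, against 0.92. Depth limits the rare genes: under 10 CPM the median SE of the log2 fold change was 0.65, against 0.20 above it.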
